A study of Mus musculus with 24 samples.

Results

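The comparison described here asks whether the effect of hypoxia on retinal transcripts changed between 2 h and 4 h of reoxygenation. It used 12 of the 24 arrays of the study, 3 in each of 4 groups, and all 45037 probe sets of the array other than its 64 control probe sets. BALB/c mice, which in the strain used here are homozygous for the light-sensitive leucine variant of Rpe65, were kept at 6% oxygen for 6 h and then returned to room air in darkness, and their retinas were taken 2 h (hypoxia 2 h) or 4 h (hypoxia 4 h) later. Normoxic control mice were sampled in parallel at both times (normoxia 2 h and normoxia 4 h). Each array held the RNA of 1 pool of 3 retinas from 3 mice, so that the pools of a group are independent samples and n = 3 for every group mean below. The hypoxia effect is the mean log2 signal of the hypoxic pools minus that of the normoxic pools at the same time, and the quantity tested is the effect at 4 h minus the effect at 2 h. On this log2 scale a value of 1 is a 2-fold difference.

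When oxygen is scarce, the prolyl hydroxylases that mark hypoxia-inducible factor (HIF) for degradation lose activity, HIF-1 accumulates and genes for glycolysis, mitochondrial remodelling, vascular growth and the hydroxylases themselves are transcribed. Once oxygen returns HIF-1 is degraded within minutes, and the transcripts it induced then decline at the rate of their own turnover. In the retina a short hypoxic episode before bright light protects photoreceptors, which is why the transcripts of the following hours were measured.

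The effect of hypoxia changed between both times in 92 of the 18903 probe sets tested, which is 0.487% (limma, Benjamini-Hochberg adjusted p under 0.05, called from here on). Of these, 47 (0.249%) had a higher and 45 (0.238%) a lower effect at 4 h than at 2 h, and 16 differed by over 2-fold, 13 of them lower. The adjusted p reached 0.00145 at its lowest, and 2037 probe sets passed 0.05 before adjustment. The largest falls were those of Hmgb2, a chromatin protein that bends DNA, and of Slc7a1, which carries arginine and lysine into cells, and the largest rise was that of Ldb2, a cofactor of LIM-domain transcription factors. The called probe sets with 1 gene stood for 73 genes, 41 with a higher and 33 with a lower effect, Dido1 being in both. Over all tested probe sets the median difference was 0.01, and 48.4% lay below 0. Just inside the threshold were Dym (0.59, adjusted p = 0.0488), Xpo1 (-0.65, 0.0496) and Tdp1 (0.69, 0.0498), and just outside another probe set of Gpc6 (-0.64), Hacd1 (-0.66) and Ehd1 (0.73), each with an adjusted p of 0.0505.

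How many probe sets were called depended on single pools. Leaving out hypoxia 2 h replicate 1 left 15 calls, without hypoxia 4 h replicate 3 there were 16, and without normoxia 4 h replicate 3 there were 20. Between 32 and 54 were found when normoxia 2 h replicate 2 (32), hypoxia 4 h replicate 2 (34), hypoxia 2 h replicate 3 (35), normoxia 4 h replicate 1 (41), normoxia 4 h replicate 2 (46), normoxia 2 h replicate 3 (47) or normoxia 2 h replicate 1 (54) was left out. Without hypoxia 2 h replicate 2 the count rose to 179, with 86 of the 92 among them, and without hypoxia 4 h replicate 1 it was 77. Calls that held without each of the 12 arrays in turn numbered 13, those of Hmgb2, Fkbp5 (both probe sets), Slc7a1 (both), Tafa4, Hlcs, Odc1, Erc2, Heatr5b, Ldb2 and a pair of probe sets without a single gene. By contrast 56 held in fewer than 6 of these 12 fits.

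**Figure D1:**
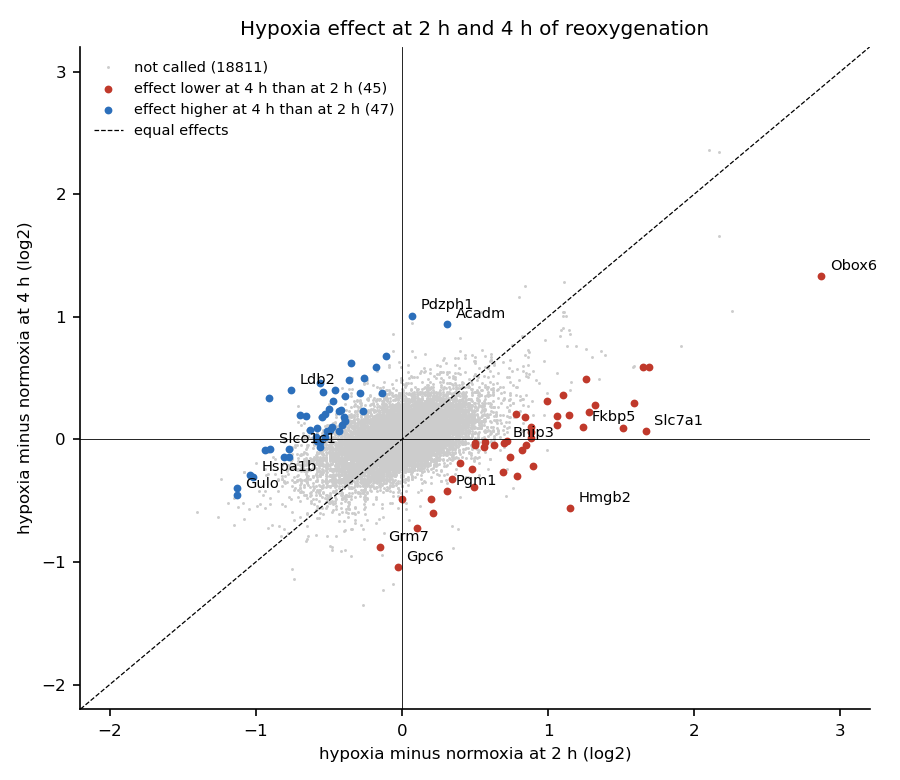
Hypoxia effect at 2 h (horizontal axis, log2) against that at 4 h (vertical axis, log2) for the 18903 tested probe sets, with those called for a lower effect at 4 h in red (45), for a higher effect in blue (47) and a dashed line where both effects are equal. Most red points lie right of 0 near an effect of 0 at 4 h, most blue points lie left of 0, and Gpc6 and Grm7 lie at the bottom with an effect near 0 at 2 h.

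Promoter sequences of 4 called genes are shown because their induction by low oxygen, by heat shock factor or by glucocorticoids is well known and short motifs can be read in them. The response element of the glucocorticoid receptor was not searched, so the mark in Fkbp5 does not concern its induction by glucocorticoids. Each is the 250 bases before the transcription start that RefSeq annotates on GRCm38.p6, written 5′ to 3′ on the strand of the gene. Capitals mark, in Bnip3, Higd1a and Fkbp5, the letters ACGTG or GCGTG, the core of the hypoxia response element, read on either strand (so that GCGTG can appear as CACGC), and in Hspa1b the heat shock element core GAANNTTC. The windows are Bnip3 at chr7:138909507-138909756, Higd1a at chr9:121857797-121858046, Fkbp5 at chr17:28486150-28486399 and Hspa1b at chr17:34959239-34959488, all on the minus strand.
Bnip3: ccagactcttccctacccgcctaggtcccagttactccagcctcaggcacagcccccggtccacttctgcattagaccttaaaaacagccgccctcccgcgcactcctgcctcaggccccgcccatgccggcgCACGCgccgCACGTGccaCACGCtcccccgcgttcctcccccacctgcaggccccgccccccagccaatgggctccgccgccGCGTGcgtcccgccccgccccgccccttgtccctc
Higd1a: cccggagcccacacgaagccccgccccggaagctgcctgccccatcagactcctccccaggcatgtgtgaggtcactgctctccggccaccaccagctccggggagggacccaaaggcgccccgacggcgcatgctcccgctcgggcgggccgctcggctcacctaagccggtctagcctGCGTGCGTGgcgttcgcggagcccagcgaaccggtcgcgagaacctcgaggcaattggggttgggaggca
Fkbp5: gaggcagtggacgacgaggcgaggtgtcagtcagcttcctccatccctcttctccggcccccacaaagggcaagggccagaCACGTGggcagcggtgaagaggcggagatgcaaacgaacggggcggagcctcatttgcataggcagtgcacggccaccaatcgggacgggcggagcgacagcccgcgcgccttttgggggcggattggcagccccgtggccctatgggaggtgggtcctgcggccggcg
Hspa1b: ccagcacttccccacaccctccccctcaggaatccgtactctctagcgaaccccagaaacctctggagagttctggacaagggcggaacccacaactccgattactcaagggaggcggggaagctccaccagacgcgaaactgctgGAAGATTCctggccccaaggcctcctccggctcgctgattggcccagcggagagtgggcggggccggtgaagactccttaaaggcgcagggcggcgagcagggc
The window of Bnip3 holds 5 matches, between 117 and 35 bases before the start, that of Higd1a 2 overlapping ones, and that of Fkbp5 1 stretch of 6 letters, an E-box, which reads ACGTG on each strand. Hspa1b has 1 match, 104 bases before the start.

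In 76 of the 92 called probe sets the effect was smaller in size at 4 h than at 2 h, and in 16 it was larger. The median effect of the 45 with a lower effect was 0.82 at 2 h and -0.03 at 4 h, and that of the 47 with a higher effect was -0.53 at 2 h and 0.18 at 4 h. The difference lay mainly in the hypoxic pools. Their own change from 2 h to 4 h was larger in size than that of the normoxic pools in 87 of the 92, with a median of -0.88 against -0.02 among those with a lower effect and of 0.56 against -0.13 among those with a higher effect. Of all tested probe sets 3027 (16%) changed between 2 h and 4 h in hypoxic retinas and 15 (0.0794%) in normoxic retinas. Since those contrasts and the effects at 2 h (3094 called, 16.4%) and at 4 h (267 called, 1.41%) share their arrays with the difference, their counts among the 92 only describe its form. By that form 73 were called at 2 h and not at 4 h, 12 at 4 h and not at 2 h, 5 at both in 1 direction and 2 at both in opposite directions.

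Pools at 0 h and 16 h did not enter the difference, although the estimate of the spread was shared by all arrays. At 0 h, the end of hypoxia, 39 of the 45 probe sets with a lower effect at 4 h were called higher in hypoxic retinas, where 14% of all tested probe sets were, and 35 of the 47 with a higher effect were called lower, against 17.4% of all. Their median effects at 0 h were 0.91 and -0.48. At 16 h no tested probe set was called by limma, with 1202 at an unadjusted p under 0.05 and a smallest adjusted p of 0.133, and the median effects were -0.10 and 0.09.

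**Figure D2:**
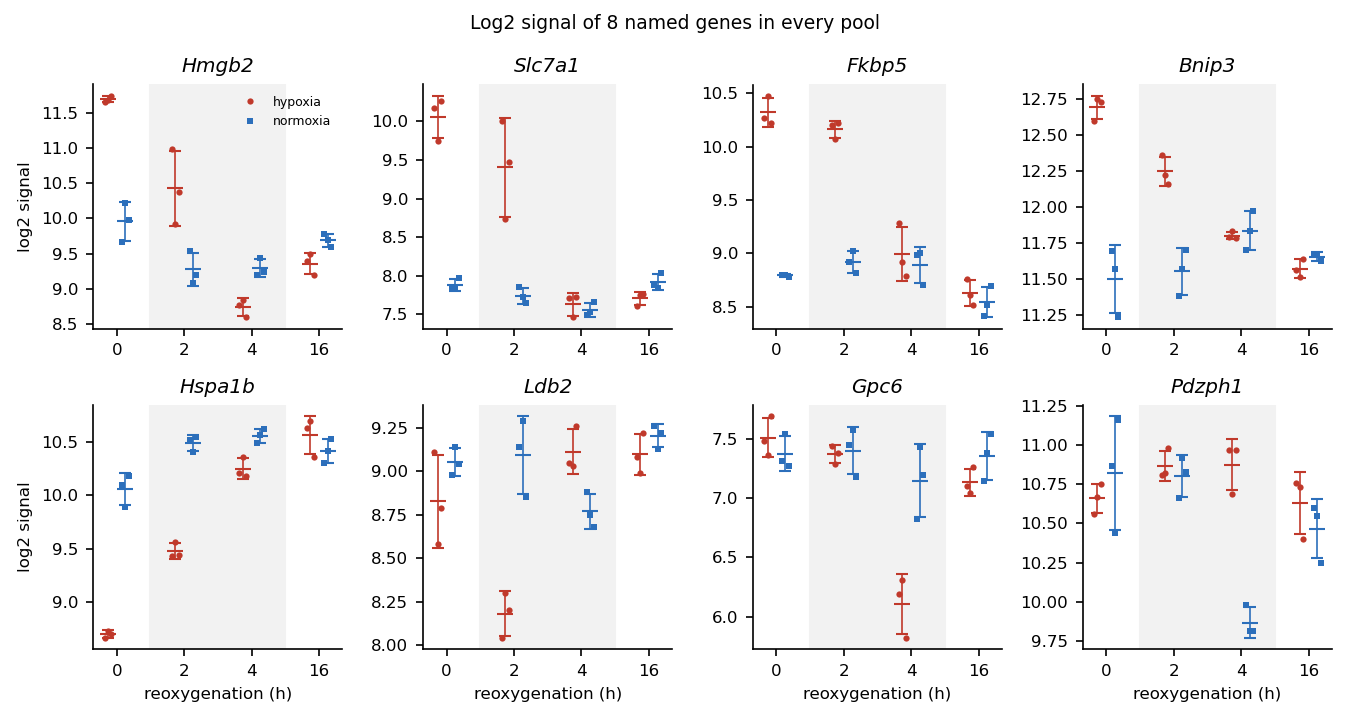
Log2 signal (vertical axis) of 8 named genes in each pool at 0, 2, 4 and 16 h of reoxygenation (horizontal axis), hypoxic pools as red circles and normoxic pools as blue squares, with the mean and SD of 3 pools as bars and the compared times shaded. In Hmgb2, Slc7a1, Fkbp5 and Bnip3 the hypoxic pools stand above the normoxic ones at 2 h but not at 4 h, in Hspa1b and Ldb2 below them at 2 h, in Gpc6 only the hypoxic pools at 4 h lie low, and in Pdzph1 the normoxic pools at 4 h do.

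Transcripts that were high in hypoxic retinas at 2 h and near the normoxic level at 4 h included the largest falls. Hmgb2 measured 10.99, 9.92 and 10.37 in the hypoxic pools at 2 h against 9.54, 9.08 and 9.20 in the normoxic ones, and 8.77, 8.84 and 8.59 against 9.20, 9.44 and 9.24 at 4 h. Hypoxic pools thus lay above all normoxic pools at 2 h and below all of them at 4 h, and such a gap in either direction was found at 2 h for 34.5% and at 4 h for 27.1% of all tested probe sets. Its effect fell by 1.71 (SE 0.26, limma adjusted p = 0.00332), from 1.15 to -0.56, the latter not passing the test (adjusted p = 0.127). A second probe set of Hmgb2 differed by -1.17 (adjusted p = 0.0849).

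Slc7a1 showed the same form on both of its probe sets. On the first the hypoxic pools measured 10.01, 8.73 and 9.47 at 2 h and 7.71, 7.46 and 7.72 at 4 h, and the normoxic pools 7.85, 7.72 and 7.65 at 2 h and 7.49, 7.53 and 7.66 at 4 h. Groups were apart at 2 h and overlapped at 4 h, and the second hypoxic pool at 2 h lay closest to the normoxic ones, as it did for Hmgb2. The effect fell by 1.60 (SE 0.27, adjusted p = 0.0110), from 1.67 to 0.07, and on the second the difference was -1.43 (SE 0.24, adjusted p = 0.0107). Odc1, the rate-limiting enzyme of polyamine synthesis, measured 9.62, 9.47 and 9.31 in hypoxic pools at 2 h, over 8.46, 8.38 and 8.38 in normoxic pools, and 8.73, 8.48 and 8.36 over 8.35, 8.35 and 8.29 at 4 h. The pools were still apart at 4 h, but the effect had fallen by 0.87 (SE 0.13, adjusted p = 0.00399), while its other probe sets differed by -0.56 and -0.34 and were not called.

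Fkbp5, a co-chaperone of the glucocorticoid receptor that glucocorticoids induce, measured 10.20, 10.07 and 10.22 in hypoxic pools at 2 h and 8.92, 9.02 and 8.82 in normoxic pools. At 4 h the values were 9.28, 8.92 and 8.79 against 8.98, 9.00 and 8.70, so that the separation of 2 h had given way to overlap. The effect fell by 1.14 (SE 0.16, adjusted p = 0.00217), from 1.24 to 0.10, and on the second probe set by 0.94 (adjusted p = 0.00145).

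HIF targets among the called genes were Bnip3, a mitophagy receptor of the outer mitochondrial membrane, and Higd1a, a protein of the inner membrane. Bnip3 measured 12.36, 12.22 and 12.16 in hypoxic pools at 2 h, above 11.38, 11.57 and 11.70 in normoxic pools, and 11.79, 11.83 and 11.78 at 4 h, within the range of 11.70, 11.83 and 11.97. The effect fell by 0.73 (SE 0.15, adjusted p = 0.0273), a call that held in 5 of the 12 fits without 1 array. Part of this difference came from the normoxic pools, whose mean was 0.28 higher at 4 h than at 2 h, while the hypoxic mean was 0.44 lower. Higd1a measured 10.94, 10.80 and 10.97 against 9.97, 9.90 and 10.40 at 2 h and 10.28, 10.19 and 10.26 against 10.18, 10.37 and 10.43 at 4 h. Its effect fell by 0.90 (SE 0.16, adjusted p = 0.0186), a second probe set was called at -0.74, and the third, which has the highest signal and stands for the gene in the lists below, differed by -0.54 (adjusted p = 0.0889).

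Metabolic enzymes and transporters with the same form were named by the size of their difference or chosen after their values were seen. Mthfd1l, a mitochondrial enzyme of one-carbon metabolism, measured 8.93, 8.85 and 8.75 in hypoxic pools at 2 h against 7.59, 7.43 and 7.67, and 7.62, 7.86 and 7.71 against 7.38, 7.55 and 7.59 at 4 h. Hypoxic pools were the higher ones at both times, and the effect fell by 1.05 (SE 0.20, adjusted p = 0.0208). Hlcs, which attaches biotin to carboxylases, had 7.75, 7.69 and 7.77 against 6.95, 6.78 and 6.94 at 2 h and 6.84, 6.69 and 6.65 against 6.76, 6.81 and 6.76 at 4 h. Its effect fell by 0.90 (SE 0.12, adjusted p = 0.00145), from 0.85 to -0.05. Grhpr, which reduces glyoxylate and hydroxypyruvate, had an effect of 0.69 at 2 h and of -0.27 at 4 h (difference -0.96, adjusted p = 0.0266). Slc37a4, the glucose-6-phosphate carrier of the endoplasmic reticulum, was called at both times, with effects of 1.26 and 0.49. For Tkt, the transketolase of the pentose phosphate pathway, the effects were 1.10 and 0.36, and for Nampt, the rate-limiting enzyme of NAD salvage, 0.56 and -0.06.

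Further falls concerned a mixture of functions. Tafa4, a secreted chemokine-like protein, measured 8.28, 8.09 and 8.09 in hypoxic pools at 2 h over 7.30 to 7.40 in normoxic ones, and 7.36, 7.03 and 7.03 at 4 h, overlapping 7.62, 7.51 and 7.19. Its effect fell by 1.09 (SE 0.18, adjusted p = 0.0102). Fyttd1, an adaptor for mRNA export, fell by 0.88 on 1 probe set (adjusted p = 0.0231), while its other 3 differed by -0.18 to 0.25. Obox6, of a homeobox family known from oocytes, measured 8.96, 7.82 and 8.34 in hypoxic pools at 2 h and 7.20, 6.41 and 6.94 at 4 h, while all normoxic pools, from 5.12 to 5.79, lay below the signal threshold of 6.69. The effect fell by 1.54 (SE 0.34, adjusted p = 0.0476) and was called at both times, at 2.87 and 1.33. Its size is limited by the low normoxic signal.

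Among probe sets whose effect was higher at 4 h, 38 were called lower in hypoxic retinas at 2 h and not called at 4 h. Over all tested probe sets 7.34% were called lower at 2 h, whatever their call at 4 h. A low effect at 2 h is part of what the difference selects, so this count only describes its form. Ldb2 measured 8.04, 8.30 and 8.20 in hypoxic pools at 2 h, below 9.14, 9.29 and 8.85 in normoxic pools, and 9.05, 9.03 and 9.26 at 4 h, above 8.88, 8.75 and 8.68. The order of the groups had turned, and the effect rose by 1.25 (SE 0.17, adjusted p = 0.00145), from -0.91 to 0.34, the latter not called. A second probe set rose by 1.16 (adjusted p = 0.0397). Adamts3, a protease that trims procollagen, rose by 1.02 (SE 0.19, adjusted p = 0.0190), from 8.19, 7.95 and 8.34 against 8.60, 8.69 and 8.89 to 8.82, 8.72 and 8.91 against 8.24, 8.51 and 8.34. Its pools were apart at both times and in opposite order, but the effect of 0.46 at 4 h was not called (limma adjusted p = 0.0914). The normoxic mean changed by -0.36 and the hypoxic mean by 0.66.

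Hspa1b, the stress-inducible Hsp70, measured 9.43, 9.56 and 9.44 in hypoxic pools at 2 h, below 10.52, 10.41 and 10.55, and 10.21, 10.36 and 10.18 at 4 h, closer to but still below 10.49, 10.57 and 10.62. The effect rose by 0.71 (SE 0.13, adjusted p = 0.0194), from -1.02 to -0.31. A probe set that can cross-hybridise rose by 0.75 (adjusted p = 0.0373), and Hspa1a, a near-identical copy whose RNA the probes may share, differed by 0.47 (adjusted p = 0.214). Another probe set of Hspa1b differed by 0.64 and was not called (adjusted p = 0.117). Slco1c1, a thyroid hormone transporter, measured 6.57, 6.68 and 6.74 in hypoxic pools at 2 h, which is around the signal threshold, against 7.50, 7.47 and 7.72, and at 4 h both groups overlapped (7.42, 7.54 and 7.51 against 7.29, 7.60 and 7.82). The effect rose by 0.83 (SE 0.16, adjusted p = 0.0208).

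Ntrk3, the receptor of neurotrophin-3, rose by 0.93 (SE 0.18, adjusted p = 0.0208), with hypoxic pools at 7.38, 7.87 and 7.68 at 2 h against 8.10, 8.15 and 8.29 and at 8.14, 8.32 and 8.22 at 4 h against 7.94, 7.93 and 7.65. The groups did not overlap at either time and changed places, but the effect of 0.39 at 4 h was not called (limma adjusted p = 0.124). Part of the difference came from the normoxic pools, whose mean changed by -0.34, beside 0.59 in the hypoxic pools. Prim1, a DNA primase subunit, rose by 0.85, Polr1a, the largest subunit of RNA polymerase I, by 0.78, Zbtb40, a zinc finger protein, by 0.89, and Tpgs2, of the tubulin polyglutamylase complex, by 0.85 and 0.66 on its called probe sets (adjusted p between 0.0208 and 0.0428). Another probe set of Prim1 differed by 0.75 and was not called (adjusted p = 0.167). Gulo, which makes the last step of vitamin C synthesis in mice, was called lower at both times, at -1.13 and -0.45. Zbtb40, Polr1a, Slco1c1 and one probe set of Tpgs2 had a hypoxic mean at 2 h below the signal threshold, so their effect at 2 h may be understated.

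The remaining called genes, 11 with a lower and 24 with a higher effect at 4 h, had differences from -0.82 to -0.55 and from 0.50 to 0.75. Those with a lower effect were Alox5ap, Pes1, Arhgef17, Snrpd3, Otud7a, Hddc2, Xpo1, Txnl4b, Galnt18, Emc8 and Tinf2. Pes1, which matures the large ribosomal subunit, measured 8.20, 8.01 and 8.29 in hypoxic pools at 2 h, over 7.37, 7.23 and 7.24, and 7.41, 7.54 and 7.42 at 4 h, overlapping 7.21, 7.45 and 7.42. Snrpd3, of the core of spliceosomal particles, had effects of 0.99 and 0.31, Alox5ap, needed for leukotriene synthesis, of 0.88 and 0.06, and Xpo1, the export receptor of the nucleus, of 0.34 and -0.32. For Xpo1 the hypoxic pools lay above the normoxic ones at 2 h (11.06, 10.64 and 10.92 against 10.48, 10.53 and 10.59) and below them at 4 h (10.09, 10.25 and 10.25 against 10.42, 10.58 and 10.54).

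Those with a higher effect were Smc1a, Pold1, Nprl2, Ide, Ssbp2, Ints10, Slc39a10, Spice1, Ttll1, Brms1l, Dym, Mrps25, Colgalt1, Map2k6, Clpb, Ift80, Sdccag8, Tdp1, Rfx3, Slco3a1, Vps13a, Wrap73, Heatr5b and Ssh2. In each of these 24 the effect at 2 h was negative and was called, where 7.34% of all tested probe sets were called lower at 2 h. A low effect at 2 h is part of what the difference selects, so this too only describes its form. Heatr5b, an endosomal trafficking protein, measured 8.31, 8.60 and 8.42 in hypoxic pools at 2 h, under 8.94, 8.97 and 9.01, and 8.85, 9.05 and 9.07 at 4 h, overlapping 8.75, 8.87 and 8.73 (difference 0.74, SE 0.12, adjusted p = 0.0106). Vps13a, a lipid transfer protein, went from -1.13 to -0.40, with the hypoxic mean at 2 h below the signal threshold. Ift80, a protein of intraflagellar transport, went from -0.81 to -0.14, Rfx3, a transcription factor of ciliary genes, from -0.63 to 0.08, and Ttll1, which adds glutamates to tubulin, from -0.48 to 0.10. Smc1a, of the cohesin ring, had 9.85, 9.84 and 9.86 against 10.41, 10.37 and 10.44 at 2 h and 10.11, 10.37 and 10.36 against 10.29, 10.41 and 10.32 at 4 h, so that its groups were apart at 2 h and overlapped at 4 h. Another 11 called probe sets have several genes (4) or none (7) in the annotation and are not named by gene.

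Only 12 probe sets were called at 4 h and not at 2 h. In 6 of them the effect was lower at 4 h, where 0.54% of all tested probe sets were called lower in hypoxic retinas, and these belonged to 5 genes, Gpc6 with a pair of probe sets, Grm7, Erc2, Prkg1 and Negr1. A low effect at 4 h is part of what the difference selects, so that count too only describes its form. Gpc6, a heparan sulfate proteoglycan of the cell surface, measured 7.44, 7.29 and 7.38 in hypoxic and 7.45, 7.57 and 7.18 in normoxic pools at 2 h, which overlapped. At 4 h the hypoxic pools had 6.19, 6.31 and 5.82, below 6.82, 7.43 and 7.19. The effect went from -0.03 to -1.04 (difference -1.01, SE 0.21, adjusted p = 0.0346), with the hypoxic mean at 4 h below the signal threshold. A second probe set was called at -0.82, and the third had -0.64 and the first adjusted p over the threshold (0.0505).

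Grm7, a presynaptic metabotropic glutamate receptor, had 8.46, 8.23 and 8.13 against 8.43, 8.36 and 8.48 at 2 h and 7.59, 7.45 and 7.27 against 8.26, 8.38 and 8.28 at 4 h. Its effect went from -0.15 to -0.88 (difference -0.73, adjusted p = 0.0465). Erc2, a scaffold of the presynaptic active zone, had 9.13, 8.69 and 8.87 against 8.56, 8.68 and 8.82 at 2 h and 8.12, 7.91 and 7.86 against 8.54, 8.59 and 8.57 at 4 h. For Erc2 the difference was -0.82 (SE 0.14, adjusted p = 0.0107). Prkg1, a cGMP-dependent kinase, and Negr1, a neuronal adhesion molecule, went from effects of 0.20 and 0.00 to -0.49 and -0.49 (adjusted p of the difference 0.0231 and 0.0476). In all 5 genes the pools overlapped at 2 h and the hypoxic ones were lower at 4 h. Their selection as called at 4 h and not at 2 h favours this form. Pools were apart at 4 h, in either direction, in 27.1% of all tested probe sets. Of the calls of the difference in these genes only that of Erc2 held without each array in turn, and those of Grm7 and Negr1 held in 2 of the 12 fits.

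The other 6 had a higher effect at 4 h, namely Pdzph1, Adcy1, Ppp2r2b, Rasgrf2 and a pair of probe sets with no gene. In 3 of them, and in Acadm and Sfxn2, the normoxic pools moved more than the hypoxic ones, and no other called probe set behaved so. Pdzph1, named for its PDZ and pleckstrin homology domains, measured 10.81, 10.82 and 10.98 in hypoxic pools at 2 h and 10.97, 10.69 and 10.97 at 4 h. Its normoxic pools had 10.66, 10.92 and 10.83 at 2 h but 9.98, 9.81 and 9.81 at 4 h. The difference of 0.95 (SE 0.20, adjusted p = 0.0385) thus came from a normoxic change of -0.94 beside a hypoxic one of 0.01.

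Acadm, the medium-chain acyl-CoA dehydrogenase of mitochondrial fat oxidation, had 11.63, 11.60 and 11.72 against 11.38, 11.37 and 11.27 at 2 h and 11.83, 11.55 and 11.76 against 10.79, 10.77 and 10.74 at 4 h. The effect rose by 0.63 (adjusted p = 0.0325), from 0.31 to 0.94, both called, with a normoxic change of -0.57. For Sfxn2, a mitochondrial sideroflexin, the effect rose by 0.86 (adjusted p = 0.0488), with changes of -0.46 in normoxic and 0.40 in hypoxic pools. Its hypoxic mean at 2 h and its normoxic mean at 4 h (6.5 each) lay below the signal threshold of 6.69. The call held in 1 of the 12 fits without 1 array, and the other probe set differed by 0.64 (adjusted p = 0.239). For Ppp2r2b, a regulatory subunit of protein phosphatase 2A, these were -0.40 and 0.37, and for Rasgrf2, an exchange factor of Ras, -0.28 and 0.24. Pdzph1 and Acadm were also the only ones of the 92 called in the normoxic change. Adcy1, a calmodulin-stimulated adenylyl cyclase, rose by 0.79 (adjusted p = 0.0476), a call lost in each of the 12 fits without 1 array.

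**Figure D3:**
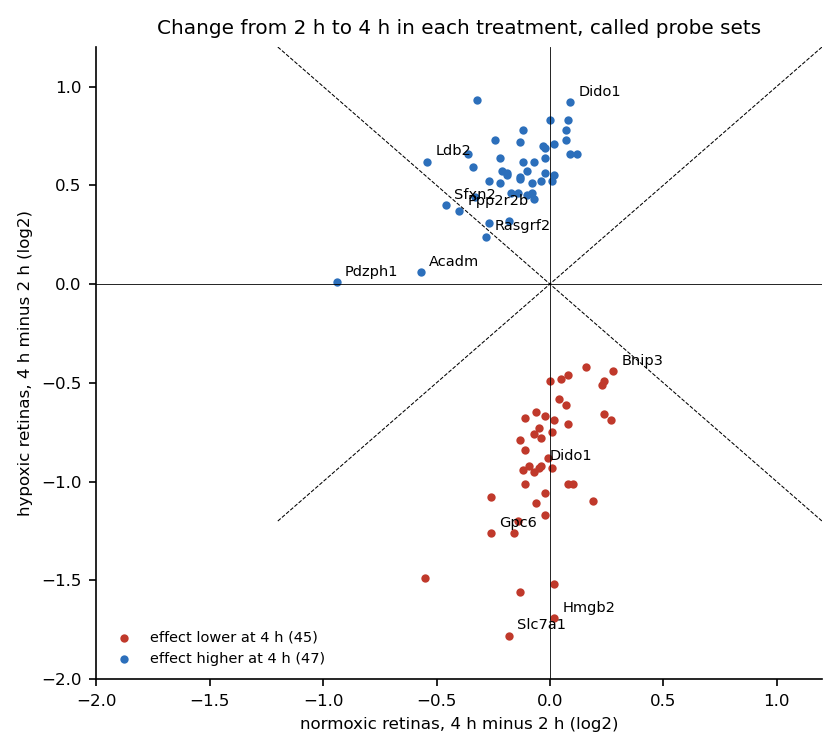
Change from 2 h to 4 h in normoxic retinas (horizontal axis, log2) and in hypoxic retinas (vertical axis, log2) for the 92 called probe sets, those with a lower effect at 4 h in red and those with a higher effect in blue, with dashed lines where both changes have the same size. The points spread along the vertical axis in 87 cases, and Pdzph1 at -0.94 is the farthest of the 5 in which the normoxic pools moved more.

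The largest changes of normoxic retinas between both times lay in Arl15, a small GTPase (1.14), Irf7, an interferon regulator (1.04), Med13l, a Mediator subunit (-1.03), Cdk5r1, the activator of the kinase Cdk5 (0.96), and Pdzph1. The mean of Arl15 in normoxic pools at 2 h (5.88) and those of Cdk5r1 in normoxic pools at both times (5.6 and 6.56) lay below the signal threshold of 6.69, so that the size of these changes, and their place among the largest, is uncertain. In the first 4 the difference of the hypoxia effect was not called, with differences of 0.44, 0.09, -0.31 and 0.27 and adjusted p from 0.604 to 0.959.

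A pair of genes was called at both times in opposite directions. Pgm1, phosphoglucomutase, which links glycogen to glycolysis, measured 10.14, 10.11 and 9.97 in hypoxic pools at 2 h, over 9.64, 9.84 and 9.82, and 9.52, 9.66 and 9.57 at 4 h, under 9.88, 9.99 and 10.14. Its effect went from 0.31 (adjusted p = 0.0292) to -0.42 (adjusted p = 0.0217), a difference of -0.73 (adjusted p = 0.0186). Dido1, a nuclear protein that reads histone marks, moved in opposite directions on different probe sets. On one the effect rose by 0.83, from -0.36 to 0.48, on another it fell by 0.87, from 0.49 to -0.39, and the last differed by 0.06. No direction can be given for this gene as a whole. The other 7 genes with more than 1 called probe set (Fkbp5, Gpc6, Higd1a, Hspa1b, Ldb2, Slc7a1 and Tpgs2) had the same direction on each.

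The HIF-1 target list had 18 tested genes, of which Bnip3 was called lower and 0 were called higher. The median difference of the list was -0.13, and 14 of 18 lay below 0, against a median of 0.01 and 48.4% below 0 over all tested probe sets. Its median effect was -0.01 at 2 h and -0.22 at 4 h, so the list as a whole was not raised at 2 h. Next to the threshold were Egln1, the main HIF prolyl hydroxylase (-0.75, adjusted p = 0.0578), P4ha2, a collagen prolyl hydroxylase (-0.66, adjusted p = 0.0602), and Ak4, an adenylate kinase of mitochondria (-1.10, adjusted p = 0.0944). Egln1 had effects of 0.44 and -0.31, whereas Ak4 had -0.13 and -1.23. Ankrd37 and Ddit4 pointed upwards with 0.51 and 0.52, not called. The number called in this list was 3 after quantile normalization, 4 with a trended and robust spread, 5 with array quality weights and 0 without the filter on low signals.

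Glycolysis and glucose uptake had 19 tested genes and 0 called (limma), where 0.487% of all tested probe sets were. At an unadjusted p under 0.05 there were 8, all of them lower, where 10.8% of all tested probe sets passed this p in either direction. The median difference was -0.23, from a median effect of 0.14 at 2 h to one of -0.10 at 4 h, and 18 of 19 lay below 0, against 48.4% of all. Slc16a3, the lactate exporter of glycolytic cells, differed by -1.24 (SE 0.35, adjusted p = 0.130), Hk2, an inducible hexokinase, by -0.71 (adjusted p = 0.141), and the most highly expressed members Aldoa and Pkm by -0.09 and -0.03. Pfkp, a phosphofructokinase, and Pdk1, which restrains pyruvate dehydrogenase and is in both lists, differed by -0.55 and -0.63, each with an adjusted p of 0.165.

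In the glucocorticoid-induced list Fkbp5 was the only one of 18 called, and the median was -0.18. Mt2 and Mt1, metallothioneins that bind zinc, had effects of 2.26 and 2.17 at 2 h and of 1.05 and 1.66 at 4 h, and their differences of -1.21 (adjusted p = 0.237) and -0.51 (adjusted p = 0.485) were not called. Of the 17 tested Atf4 targets and amino acid transporters only Slc7a1 was called, and Slc7a5 and Slc3a2, the subunits of another amino acid exchanger, differed by -0.46 and -0.28. The list as a whole was split, with 8 above 0, 9 below and a median of -0.03. In the heat shock list Hspa1b was the only one of 18 called, 14 of 18 lay above 0 (51.6% of all did) and the median was 0.09. Its cytosolic Hsp70 relative Hspa8 differed by 0.13 and Chordc1, a partner of Hsp90, by 0.20.

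The Bcl2 family had 9 tested genes, and Bnip3 was again the one called. No gene was called (limma) in the remaining 14 pathway lists, where 0.487% of all tested probe sets were. In lists of this size that is near the share of all, and not a result about these pathways. Their medians lay between -0.07 (cholesterol synthesis, 21 tested) and 0.10 (demethylases and oxygen-sensing hydroxylases, 21 tested). From 0 to 4 genes per list had an unadjusted p under 0.05, against 10.8% of all tested probe sets. Among these 14 lists were the circadian clock (17 tested, median -0.05), immediate early genes (14, -0.06), the unfolded protein response (18, -0.02), p53 targets (17, -0.03), mitochondrial respiratory chain (22, 0.01) and ribosomal proteins (14, -0.05). Egr1, a zinc finger factor of the immediate early group, differed by -0.70 with an SE of 0.42.

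**Figure D4:**
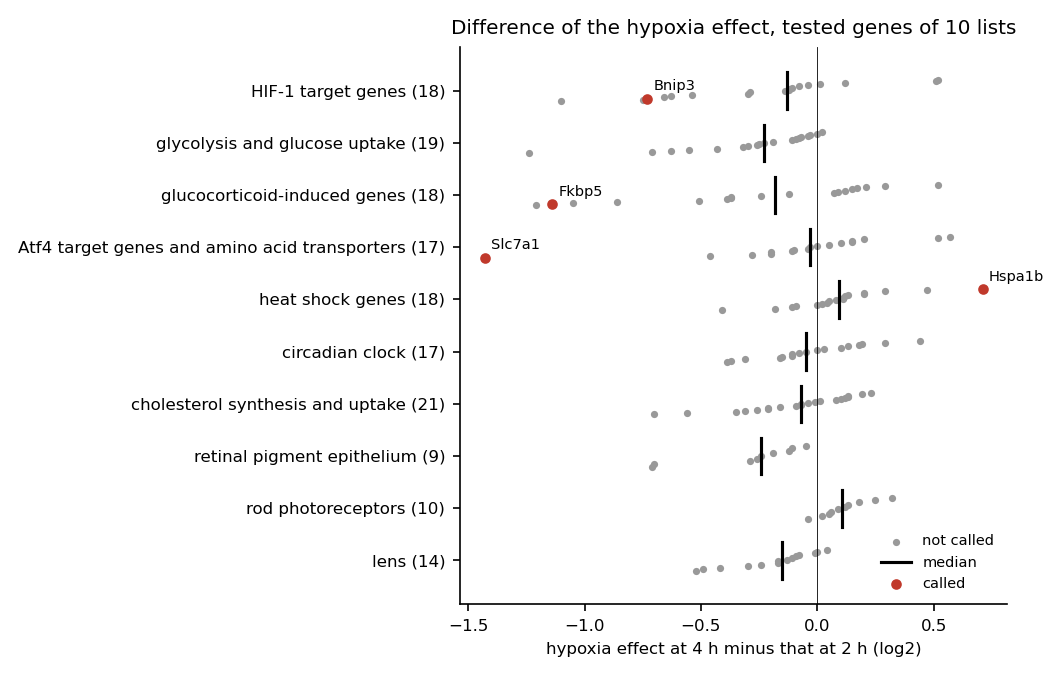
Hypoxia effect at 4 h minus that at 2 h (horizontal axis, log2) for each tested gene of 10 gene lists (number tested in brackets), called genes in red with their names, others in grey and the median of each list as a black bar. The medians of the HIF-1 target, glycolysis and retinal pigment epithelium lists lie left of 0 at -0.13, -0.23 and -0.24 and that of the rods right of it at 0.10, and 4 genes in these lists were called.

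Markers of retinal cells were checked in the same 12 arrays. All 10 measured rod markers lay above the signal threshold, and the mean over them ranged from 13.02 to 13.32 among the arrays. Cone, Mueller glia, bipolar, amacrine and ganglion cell markers were present too (8 of 9, 10 of 10, 8 of 8, 8 of 10 and 8 of 9), red blood cell markers were not (0 of 5). Markers of the lens (14 of 14) and of the retinal pigment epithelium (9 of 13) were present although neither belongs to the neural retina. No marker of any of the 13 cell type lists was called for the difference (limma), where 0.487% of all tested probe sets were. With so few markers in a list this is not a result about the cell types, and the red blood cell list had no tested marker. Up to 3 in a list had an unadjusted p under 0.05, against 10.8% of all tested probe sets. Those 3 were Mueller glia markers, all lower, of 10 tested. In tissue RNA, fewer cells of a type and less RNA per cell cannot be told apart.

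Rod markers had a median effect of -0.16 at 2 h and of -0.09 at 4 h. Of their 10 differences 9 lay above 0 (51.6% of all tested probe sets did), with a median of 0.10. In the hypoxic pools at 2 h the mean over the rod markers was lowest, at 13.02 to 13.11, against 13.17 to 13.32 in all other pools. The retinal pigment epithelium markers had higher means in hypoxic (7.32 to 8.26) than in normoxic pools (6.66 to 7.64) at 2 h, with overlap, and at 4 h these were 7.04 to 7.71 and 6.65 to 7.31. All 9 tested ones had a difference below 0, where 48.4% of all tested probe sets did, with a median of -0.24. One of them, Rlbp1, is also in the Mueller glia list, and Ttr differed by only -0.11 with an SE of 0.72. Differences below 0 were not particular to this list, with 8 of 10 in Mueller glia and 5 of 5 in microglia and macrophages. Lens markers averaged 12.23 to 12.60 in hypoxic and 12.54 to 12.75 in normoxic pools at 2 h and 11.11 to 12.17 and 11.97 to 12.45 at 4 h. The median difference of the lens list was -0.15, with 12 of 14 below 0. The part of these cell types in the called differences was not tested.

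The length of genome that a gene spans did not enter the comparison and was examined after the values were seen. Over 10187 tested genes the median span in RefSeq (GRCm38.p6) was 25.2 kb. Genes called with a higher effect at 4 h (40, with Dido1 left to the other direction) had a median of 70.5 kb and those with a lower effect (33) of 33.0 kb. The 5 genes that were lower in hypoxic retinas at 4 h and not at 2 h were the longest of the latter, with 755 kb for Negr1, 856 kb for Erc2, 922 kb for Grm7, 1050 kb for Gpc6 and 1200 kb for Prkg1. The 27 genes whose effect fell and was smaller at 4 h had a median of 23.2 kb and a maximum of 321 kb.

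Spans were also set against the effect in all tested genes. At 2 h the 383 genes of 200 to 400 kb had a median effect of -0.14 and the 206 genes over 400 kb one of -0.11, while those of 10 kb or less had 0.02. At 4 h the 200 to 400 kb genes were at -0.04 and those over 400 kb still at -0.11. Relative to the normoxic mean, the median over the 200 to 400 kb genes was -0.124, -0.130 and -0.144 in the hypoxic pools at 2 h, apart from -0.018, 0.014 and 0.009 in the normoxic ones, and -0.104, -0.003 and -0.004 at 4 h, overlapping -0.031, 0.066 and -0.032. For genes over 400 kb it was -0.032, -0.147 and -0.149 at 2 h, below 0.006, -0.011 and 0.012, and -0.228, -0.088 and -0.082 at 4 h, below -0.046, 0.089 and -0.027. In this longest class hypoxic and normoxic pools were therefore apart at both times, and in the next only at 2 h. Shorter classes had pools apart at 2 h too. At 100 to 200 kb the hypoxic pools were lower (-0.055 to -0.035 against -0.023 to 0.017). They were higher at 10 to 25 kb (0.025 to 0.062 against -0.013 to 0.011) and at 25 to 50 kb (0.019 to 0.046 against -0.018 to 0.013). These are descriptions with no test, and the median effects of both classes were 0.00 and 0.01 at 16 h and -0.02 and 0.01 at 0 h.

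**Figure D5:**
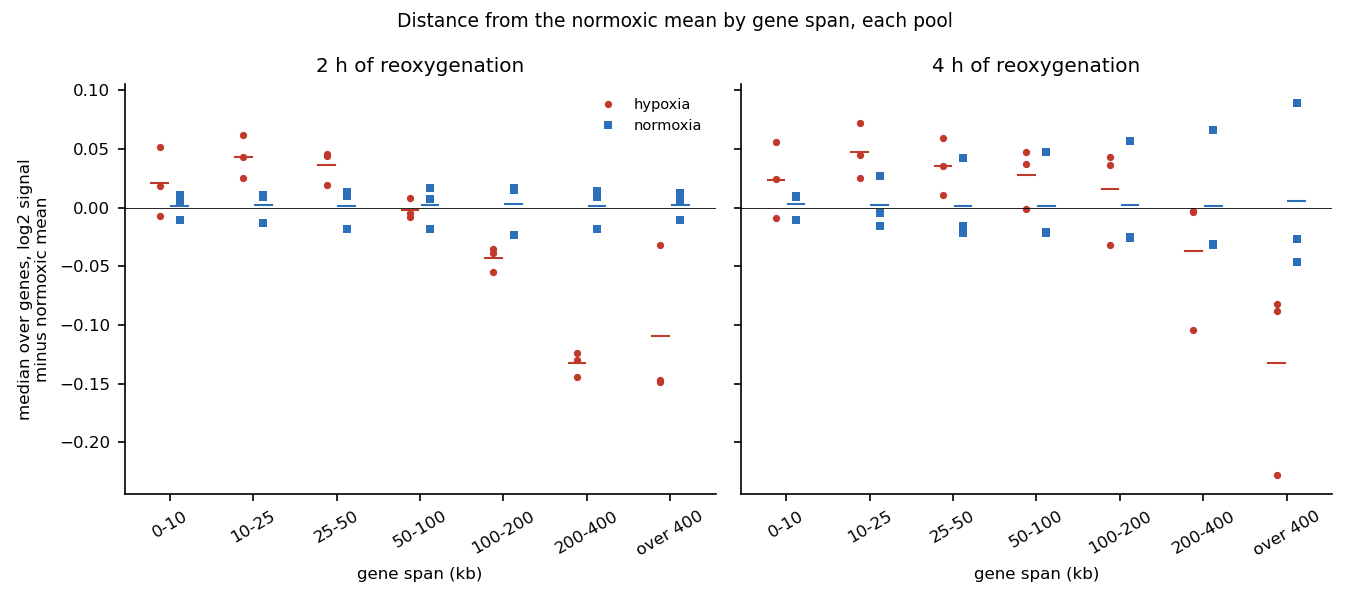
Median over genes of the log2 signal minus the normoxic mean (vertical axis) in each pool for 7 classes of gene span in kb (horizontal axis), at 2 h on the left and 4 h on the right, hypoxic pools in red, normoxic pools in blue and short bars for the mean of 3 pools. At 2 h the mean of the hypoxic pools is lowest for spans of 200 to 400 kb, with pools at -0.124 to -0.144, although the pair of lowest single pools (-0.147 and -0.149) lies in the class over 400 kb, and at 4 h the mean is lowest for spans over 400 kb, with pools at -0.228 to -0.082.

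Of the promoter motifs searched on both strands in the 250 bases before each start, GCGTG was found in 14 of 27 genes with a lower effect that have a RefSeq window (51.9%), in 17 of 28 with a higher effect (60.7%) and in 30.9% of all 27025 genes with a window. ACGTG was found in 22.2%, 21.4% and 18.5%. The E-box CACGTG, which contains ACGTG on each strand, was found in 11.1%, 10.7% and 6.86%, the cyclic AMP response element TGACGTCA in 11.1%, 0% and 1.77%, and the heat shock core GAANNTTC in 0%, 10.7% and 7.73%. The metal response core TGCGCNC was found in 22.2%, 25% and 14% of them, and the serum response element in none of the called genes and 0.074% of all. Called genes of both directions thus shared a higher share of GCGTG than all genes, which include genes not tested here, and base composition was not compared.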

How the data were processed

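The authors deposited log2 values from RMA (named in the submitters' processing notes, version not given in the sources used here), a procedure of background correction, normalization across arrays and summary of each probe set, a group of short probes for a transcript. The median of an array fell between 5.79 and 5.83. What can be detected is bounded by signal over background, and n = 3 pools per group limits the precision.

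With limma 3.58.1 in R 4.3.3 a linear model of the 8 group means was fitted to the 24 arrays (16 residual degrees of freedom), with two-sided tests moderated by eBayes. A probe set was tested when at least 1 of the 4 group means reached 6.69, the minimum between the density peaks of all values at 3.81 and 7.90, and Benjamini-Hochberg adjustment ran over the 18903 tested. Symbols came from the platform annotation (34945 probe sets with 1 gene, 932 with several, 9160 with none), and 34741 matched RefSeq by gene identifier.

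Named genes were the 12 largest rises and falls among called probe sets, up to 4 called genes of each of 33 gene lists (or the 2 with the highest signal) and the 5 largest normoxic changes, and others were chosen after their values were seen. The brightest probe set stood for a list gene. The members and lists were chosen with earlier results of these data known, and no list was tested. Alternatives were no filter or a stricter one, array quality weights, a robust trended variance, centring on medians, quantiles made equal, the 12 arrays alone with and without moderation, replicate blocks, removal of probe sets that can cross-hybridise, gene means, an adjusted p under 0.1 and leaving out each array.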

Additional observations from a re-analysis of the deposited data

Results flagged for a closer look

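The hypoxia effect differed between both times of reoxygenation by a test of the difference itself (limma, adjusted p under 0.05) in 92 probe sets, and the named genes among them are given here with the effect at 4 h minus that at 2 h on the log2 scale. It was lower at 4 h for Hmgb2 (-1.71), Slc7a1 (-1.60 and -1.43), Obox6 (-1.54), Fkbp5 (-1.14), Tafa4 (-1.09), Mthfd1l (-1.05), Gpc6 (-1.01), Grhpr (-0.96), Higd1a (-0.90), Hlcs (-0.90), Fyttd1 (-0.88), Odc1 (-0.87) and Bnip3 (-0.73). It was higher for Ldb2 (1.25), Adamts3 (1.02), Pdzph1 (0.95), Ntrk3 (0.93), Zbtb40 (0.89), Sfxn2 (0.86), Prim1 (0.85), Tpgs2 (0.85), Slco1c1 (0.83), Dido1 (0.83), Adcy1 (0.79), Polr1a (0.78) and Hspa1b (0.71). Another probe set of Dido1 was called at -0.87, so that no direction can be given for this gene. The other probe sets of Fyttd1 differed by -0.18 to 0.25 and were not called.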

How the results depend on the processing

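The limits are few arrays and calls close to the threshold. Of the 27 called probe sets that the naming rule gave, 0 changed direction under any alternative, but only the call of Hlcs was kept in all of them. The 92 calls (47 higher, 45 lower) became 39 (10 and 29) without the filter, 156 (87 and 69) with a trended and robust spread, 228 (136 and 92) with array quality weights, 21 (8 and 13) from the 12 arrays alone, 4 (2 and 2) from these without moderation, 50 (29 and 21) with gene means and 193 (108 and 85) at an adjusted p under 0.1. Median centring gave 31 higher ones. With quality weights all 92 calls held, and from the 12 arrays alone 20 held. The 16 calls over 2-fold became 10 from the 12 arrays alone, 0 without moderation (against 4 calls of any size) and 5 with gene means. The 267 calls at 4 h became 491 (trended), 743 (weights), 139 (12 arrays), 123 (without moderation) and 590 (adjusted p under 0.1). The 15 normoxic calls became 4 without the filter, 46 with weights, 4 from the 12 arrays and 0 without moderation. With gene means the hypoxic change had 1570 and the effect at 2 h 1816 calls. The causes were not tested, other than that gene means and no filter change how many features are tested and 12 arrays leave fewer samples.

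Leaving out each array in turn gave 15 to 179 calls, with 2 to 105 higher, 13 to 74 lower and 7 to 26 over 2-fold. It gave 1262 to 3219 for the hypoxic change, 0 to 156 for the normoxic change, 1620 to 3029 at 2 h and 82 to 285 at 4 h.

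Replicate numbers were not taken as pairs. Same-numbered hypoxic and normoxic arrays correlated at -0.095 to 0.214 after group means were removed, 2 of 6 pairs over 0.1, and 6 of 12 arrays correlated best with their own number. With the replicate block within a time point there were 19 calls (5 higher, 14 lower, 9 over 2-fold), 18 of them among the 92. The effect at 4 h had 134 calls in that fit. Blocks within a time point cannot be separated from a change between times within a treatment. The counts of that fit for the hypoxic change (127) and the normoxic change (0) therefore cannot be compared with the main ones. With a block over all time points there were 103 calls of the difference.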
